A study of Rattus norvegicus with 24 samples.

Results

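The genes described here carry out uptake across the brush border of the proximal tubule, the first stretch of the renal tubule. They were chosen by function from a list of 45 gene symbols, made up of 26 solute carriers, 5 endocytic receptors with their partners, 9 brush border hydrolases, 2 scaffold proteins and 3 enzymes typical of the segment. This list and the gene lists set beside it below were drawn up with earlier results of these data known. Every probe set that the array annotation gave one of these symbols was taken, which yielded 50 of the 15923 probe sets, for 41 genes. Slc5a12, Slc6a19, Slc6a20 and Slc9a3r1 matched no probe set by these names. A probe set was tested where its signal lay above the array's 40th percentile (44.48 to 54.5 signal units) on 6 or more of the 24 arrays, and 48 probe sets of 39 genes did so. The disaccharide hydrolase Treh (trehalase), with signals of 4.4 to 13.2 over all arrays, and the urate and organic anion carrier Slc17a3, with 12.3 to 44.4, lay below that filter and were not tested. Tested were thus 22 solute carriers, 5 endocytic genes, 8 hydrolases, the scaffold Pdzk1 and the 3 enzymes.

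Messenger RNA was measured in whole kidneys of 24 male stroke-prone spontaneously hypertensive rats (SHR-SP), with 1 array per animal. Treatment began at 11 weeks of age and lasted 2 or 8 weeks. The treated animals ate chow with a fat content of 24.5% and drank water with 1% NaCl (a high intake of salt and fat, here called the salt-fat diet), whereas the others ate powdered chow and drank water (the normal diet). There were 6 separate animals for each diet and duration, and all 4 groups share the hypertensive strain. Salt and fat were always given together, so their effects cannot be told apart, and no strain with normal blood pressure is part of these samples.

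The proximal tubule reclaims most of the filtered glucose, amino acids, phosphate, sulfate and organic acids, by sodium-coupled carriers in its luminal brush border and by exit carriers in its basolateral membrane. Filtered proteins and vitamin-binding proteins are taken up by the receptors megalin (Lrp2) and cubilin (Cubn), which share adaptors and ligands, while peptides are split by ectoenzymes anchored in the brush border. The carriers are laid out along the segment: low-affinity, high-capacity forms such as Slc5a2 and Slc15a1 lie early, and high-affinity forms such as Slc5a1 and Slc15a2 lie later.

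Values are MAS5 signals, an intensity in arbitrary units for each probe set, and are compared only within a probe set. The summed signals of marker lists given below are the exception, and bright probe sets weigh most in them. Differences are of log2(signal + 7.21) ± SE, on which the change of weakly expressed genes is understated. They come from 1 limma fit to all 24 arrays, and called means an adjusted p under 0.05 by the Benjamini-Hochberg method, taken over all 10208 tested probe sets. A gene with 2 probe sets is represented by the one of higher mean log2 signal. Only called genes are said to have risen or fallen. Median signals of the arrays lay between 68.7 and 78.8, and the number of arrays limits the precision. Arrays 1 and 2 of the 8-week normal diet stood apart in their lowest signals, and the 8-week median over the 39 genes was -0.23 without them, against -0.19 with them. At 2 weeks the 3' to 5' ratio of the GAPDH control probe sets, a sign of RNA length, was 1.22 ± 0.0936 on the salt-fat diet and 1.09 ± 0.0738 on the normal diet (SD, n = 6 each). The level of the spike-in control probe sets at 2 weeks, as a mean centred log2 signal, was -0.13 ± 0.20 on the salt-fat diet and 0.17 ± 0.06 on the normal diet. An index of 3 fat cell genes at 2 weeks, in units of standard deviations, was -0.82 ± 0.39 on the salt-fat diet and 0.90 ± 0.92 on the normal diet.

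After 2 weeks on the salt-fat diet, 16 of the 39 genes fell and 1, Slc16a7, rose. Of all 10208 probe sets tested, 8.74% were called in that comparison (4.19% lower and 4.55% higher). After 8 weeks 14 of the 39 genes fell and 1, Gda, rose, while 9.14% of all probe sets were called, 3.51% lower and 5.63% higher. The changes were modest in size: the median difference over the 39 genes was -0.19 at 2 weeks and -0.19 at 8 weeks, against 0.02 and 0.00 over all probe sets. The solute carriers are 22 of the 39 genes, and they were 12 of the 16 falls at 2 weeks and 9 of the 14 at 8 weeks. At 2 weeks 12 of 22 solute carriers fell (median difference -0.29), as did 2 of 5 endocytic genes (-0.21), 0 of 8 hydrolases (-0.10) and 2 of 3 enzymes (-0.33). Among the 8 hydrolases at 2 weeks, 2 had an unadjusted limma p under 0.05, as did 2328 of all 10208 probe sets. At 8 weeks 9 of 22 carriers fell (-0.24), as did 2 of 5 endocytic genes (-0.23), 2 of 8 hydrolases (-0.07), the scaffold Pdzk1 (-0.26) and 0 of 3 enzymes (-0.06). Of these enzymes Gda rose, and Miox, with -0.19 ± 0.07, had an unadjusted limma p under 0.05 without being called. Leaving out array 1 of the 8-week salt-fat diet brought the 8-week count to 8 genes. Whether fewer proximal tubule cells or less RNA per cell lies behind a lower signal cannot be told apart in whole kidneys.

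Fewer genes were called at 2 weeks under some other settings, and fewer probe sets over the whole array. Of all 10208 probe sets 892 were called at 2 weeks in the main fit, and 796 with quantile normalization. The GAPDH ratio, the fat index and the spike-ins as covariate gave 328, 232 and 482 called probe sets. Quantile normalization left 10 called genes of the 17 and moved Hao2, Lrp2, Miox, Slc13a3, Slc16a7, Slc27a2 and Slc34a1 out of the calls. With a covariate for the GAPDH ratio, the fat index or the spike-ins, 7, 2 and 4 genes were called at 2 weeks, and the medians over the 39 genes were -0.22, -0.20 and -0.13, with 33, 34 and 27 genes below 0. Called with the GAPDH ratio were Dab2, Hao2, Lrp2, Miox, Slc13a3, Slc27a2 and Slc34a1. With the fat index these were Dab2 and Miox, and with the spike-ins Dab2, Slc13a1, Slc5a1 and Slc7a9. At 8 weeks the GAPDH ratio and the fat index changed no call among the 39 genes, while the spike-ins ended those of Dpep1, Enpep, Slc6a13 and Slc7a7 and added Miox and Slc34a1. The 8-week count of 15 became 11 with arrays centred on their medians, without Amn, Enpep, Pdzk1 and Slc1a1. It became 12 with only the groups compared in the fit, without Amn, Pdzk1 and Slc1a1, and 12 without the intensity trend, without Amn, Enpep and Pdzk1. Over all probe sets the 8-week calls went from 933 to 793 with centred arrays and 644 with only the groups compared. They went to 858 without the intensity trend and 497 with the spike-ins.

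**Figure D1:**
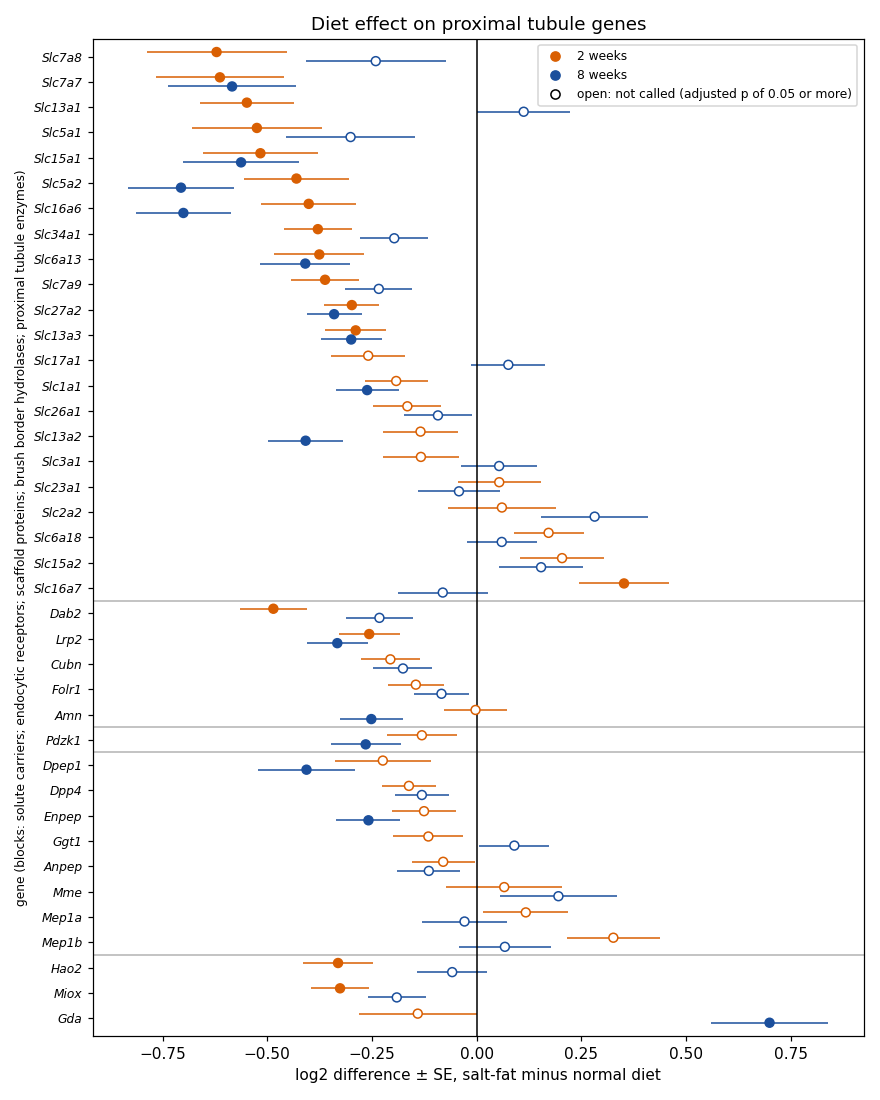
Difference between the salt-fat diet and the normal diet for the 39 genes tested, on the log2(signal + 7.21) scale (horizontal axis), as points with SE bars at 2 weeks (orange) and 8 weeks (blue). Filled points are called genes; most filled points lie left of 0, and Slc16a7 at 2 weeks and Gda at 8 weeks lie to the right.

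The luminal glucose carrier of the early proximal tubule, Slc5a2 (SGLT2), fell at both times. At 2 weeks its signal was 423 to 589 (median 504) on the salt-fat diet, against 549 to 879 (median 679) on the normal diet, a difference of -0.43 ± 0.13, adjusted p = 0.0312. The ranges overlapped, although all 6 treated kidneys lay below the normal median. That call was lost on omission of 2-week salt-fat array 2, 3, 5 or 6 or 2-week normal-diet array 1, 3 or 6 (-0.44 to -0.35). At 8 weeks Slc5a2 measured 320.1 to 556 (median 467) on the salt-fat diet, against 578 to 892 (median 737) on the normal diet, with no overlap, and the difference of -0.71 ± 0.13, adjusted p = 0.000569 put the treated mean at 61.2% of the normal mean. Slc5a1 (SGLT1), the high-affinity glucose carrier of the late segment, measured 42.8 to 86.8 (median 77.5) on the salt-fat diet, against 91.6 to 125 (median 105) on the normal diet at 2 weeks. These ranges did not overlap and the difference was -0.52 ± 0.15, adjusted p = 0.0317. The lowest treated kidney, array 2, had a signal of 42.8, and leaving out 2-week salt-fat array 2 or 2-week normal-diet array 2, 3 or 6 (-0.52 to -0.40) ended the call. At 8 weeks Slc5a1 stood at 50.6 to 111 (median 75.2) on the salt-fat diet, against 77 to 115 (median 85.8) on the normal diet, which overlapped, with a difference of -0.30 ± 0.15, adjusted p = 0.235. Slc2a2 (GLUT2), the basolateral exit for glucose, pointed the other way without being called. Its signal was 236 to 385 (median 311) on the salt-fat diet, against 254 to 354 (median 289) on the normal diet at 2 weeks, and 300.2 to 517 (median 383) on the salt-fat diet, against 225 to 369 (median 325) on the normal diet at 8 weeks. Both pairs of ranges overlapped, and the differences were 0.06 ± 0.13, adjusted p = 0.824 at 2 weeks and 0.28 ± 0.13, adjusted p = 0.176 at 8 weeks. The 8-week interval of 2 SE each way was 0.03 to 0.54.

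Among the amino acid carriers 4 fell at 2 weeks and 3 at 8 weeks. Slc7a7 (y+LAT1), which moves cationic amino acids out across the basolateral membrane, fell at both times. Its 2-week signals were 419.8 to 763 (median 621) on the salt-fat diet, against 654 to 1239 (median 932) on the normal diet, with overlap and a difference of -0.61 ± 0.15, adjusted p = 0.0121. At 8 weeks they were 427 to 855 (median 659.9) on the salt-fat diet, against 757 to 1103 (median 942) on the normal diet, again overlapping, with -0.58 ± 0.15, adjusted p = 0.016, a call that was lost on leaving out 8-week salt-fat array 1 (-0.48). Slc7a8 (LAT2), the basolateral exchanger of neutral amino acids, had the lowest 2-week difference of the 39 genes. Its signal was 146 to 228 (median 185) on the salt-fat diet, against 240.3 to 322 (median 289) on the normal diet, with separate ranges and -0.62 ± 0.17, adjusted p = 0.0188, and the call ended without 2-week salt-fat array 2 (-0.56). After 8 weeks Slc7a8 overlapped at 156 to 327 (median 234) on the salt-fat diet, against 174 to 388 (median 259) on the normal diet, a difference of -0.24 ± 0.17, adjusted p = 0.407. Slc7a9, the light subunit of the luminal cystine and dibasic amino acid carrier, measured 668 to 834 (median 739) on the salt-fat diet, against 863 to 1128 (median 912) on the normal diet at 2 weeks. The treated kidneys all lay below the normal ones, and the difference was -0.36 ± 0.08, adjusted p = 0.00456. At 8 weeks it was 624 to 875 (median 776) on the salt-fat diet, against 796 to 1001 (median 907) on the normal diet, overlapping, with -0.23 ± 0.08, adjusted p = 0.0649, and it was called there on omission of 8-week salt-fat array 5 or 6 or 8-week normal-diet array 3 (-0.27 to -0.26). Its heavy subunit Slc3a1 (rBAT) was called at neither time, at -0.13 ± 0.09 after 2 weeks and 0.05 ± 0.09 after 8 weeks.

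Slc6a13 (GAT2), a basolateral carrier of betaine and GABA, fell at both times. Its signals were 144 to 228 (median 197) on the salt-fat diet, against 216 to 266 (median 247) on the normal diet at 2 weeks, and 131 to 209 (median 179) on the salt-fat diet, against 189 to 256 (median 235) on the normal diet at 8 weeks. Both pairs overlapped, with differences of -0.38 ± 0.11, adjusted p = 0.0281 at 2 weeks and -0.41 ± 0.11, adjusted p = 0.0161 at 8 weeks. The 2-week call was lost without 2-week salt-fat array 2 or 6 or 2-week normal-diet array 2, 5 or 6 (-0.36 to -0.31), and the 8-week call without 8-week salt-fat array 1 (-0.33). Slc1a1 (EAAC1), the luminal glutamate and aspartate carrier, fell at 8 weeks on both of its probe sets. The representing one measured 377 to 527 (median 433) on the salt-fat diet, against 465 to 598 (median 535) on the normal diet, overlapping, with -0.26 ± 0.08, adjusted p = 0.0269, and the other differed by -0.29 ± 0.08, adjusted p = 0.0288. The representing call ended on omission of 8-week salt-fat array 1, 4 or 5 or 8-week normal-diet array 3 or 5 (-0.25 to -0.22). At 2 weeks Slc1a1 stood at 491 to 563 (median 509.6) on the salt-fat diet, against 533 to 667 (median 589) on the normal diet, overlapping, a difference of -0.19 ± 0.08, adjusted p = 0.113. Slc6a18, a luminal carrier of neutral amino acids, was called at neither time (0.17 ± 0.08 at 2 weeks and 0.06 ± 0.08 at 8 weeks).

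Of the peptide carriers of the early and late segment, the early one fell and the late one was not called. Slc15a1 (PEPT1), the low-affinity form, fell at both times. At 2 weeks it measured 47.4 to 81.1 (median 60) on the salt-fat diet, against 74.7 to 106 (median 93) on the normal diet, overlapping, with a difference of -0.52 ± 0.14, adjusted p = 0.0183 that was no longer called without 2-week salt-fat array 5 (-0.45). At 8 weeks the signals were 41.3 to 75.6 (median 53.8) on the salt-fat diet, against 62.5 to 108 (median 81) on the normal diet, again with overlap, and -0.56 ± 0.14, adjusted p = 0.0102. Slc15a2 (PEPT2), the high-affinity form, was called at neither time. Its signal was 527 to 698 (median 576) on the salt-fat diet, against 467 to 544 (median 519) on the normal diet at 2 weeks, and 396 to 576 (median 434) on the salt-fat diet, against 289 to 507 (median 426) on the normal diet at 8 weeks. The ranges overlapped at both times, and the differences were 0.20 ± 0.10, adjusted p = 0.223 at 2 weeks and 0.15 ± 0.10, adjusted p = 0.375 at 8 weeks. The difference between the responses of these 2 genes was not tested.

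The carriers of phosphate, sulfate and dicarboxylates also fell, some at 1 time and some at both. Slc34a1 (NaPi-IIa), the main luminal phosphate carrier, fell at 2 weeks, at 3505 to 4775 (median 4046) on the salt-fat diet, against 4909 to 6018 (median 5227) on the normal diet. The ranges were apart, with a difference of -0.38 ± 0.08, adjusted p = 0.00361. The 8-week signals were 3851 to 4757 (median 4328) on the salt-fat diet, against 4025 to 5996 (median 4918) on the normal diet, overlapping, with -0.20 ± 0.08, adjusted p = 0.133, called on omission of 8-week normal-diet array 2 (-0.26). Its second probe set gave another order: -0.26 ± 0.08 at 2 weeks (adjusted p = 0.0578) and -0.44 ± 0.08 at 8 weeks (adjusted p = 0.00122), with separate ranges at 8 weeks. So the time at which Slc34a1 was called turned on the probe set. Slc17a1, an organic anion and phosphate carrier, was called at neither time (-0.26 ± 0.09 at 2 weeks and 0.08 ± 0.09 at 8 weeks), and became called at 2 weeks without 2-week normal-diet array 4 or 8-week salt-fat array 2 (-0.31 to -0.26).

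Slc13a1 (NaS1), the luminal sulfate carrier, fell at 2 weeks and was not called at 8 weeks. Its 2-week signals were 282 to 524 (median 452) on the salt-fat diet, against 553 to 713 (median 619.7) on the normal diet, with no overlap and a difference of -0.55 ± 0.11, adjusted p = 0.00234. The second probe set differed by -0.57 ± 0.14, adjusted p = 0.0109. After 8 weeks the signals were 601 to 762 (median 726) on the salt-fat diet, against 570.0 to 755 (median 634) on the normal diet, overlapping, with 0.11 ± 0.11, adjusted p = 0.588. Slc26a1 (SAT1), the basolateral partner in sulfate transport, was called at neither time (-0.17 ± 0.08 at 2 weeks and -0.09 ± 0.08 at 8 weeks).

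The dicarboxylate carriers take up citrate and other Krebs cycle acids. The luminal form Slc13a2 (NaDC1) was not called at 2 weeks, at 799 to 960.1 (median 836) on the salt-fat diet, against 831 to 1062 (median 932) on the normal diet, overlapping, with -0.13 ± 0.09, adjusted p = 0.394. At 8 weeks it fell, at 546 to 865 (median 642) on the salt-fat diet, against 725 to 951 (median 885) on the normal diet, with some overlap and a difference of -0.41 ± 0.09, adjusted p = 0.00417. The basolateral form Slc13a3 (NaDC3) fell at both times. It measured 2356 to 2784 (median 2420.2) on the salt-fat diet, against 2828 to 3447 (median 3031) on the normal diet at 2 weeks, a difference of -0.29 ± 0.07, adjusted p = 0.0123, and 1979.5 to 2677 (median 2465) on the salt-fat diet, against 2738 to 3313 (median 2942) on the normal diet at 8 weeks, a difference of -0.30 ± 0.07, adjusted p = 0.00936. At both times every treated kidney lay below every normal one.

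Carriers of monocarboxylates and fatty acids also moved. Slc27a2 (FATP2), which takes up long-chain fatty acids and activates very long-chain ones, fell at both times with no overlap. Its signal was 2030.1 to 2580.4 (median 2248) on the salt-fat diet, against 2628 to 2983 (median 2844) on the normal diet at 2 weeks, a difference of -0.30 ± 0.07, adjusted p = 0.00456. At 8 weeks it was 1894 to 2171 (median 2009) on the salt-fat diet, against 2225 to 2825 (median 2682) on the normal diet, a difference of -0.34 ± 0.07, adjusted p = 0.0013. Slc16a6 (MCT7), a monocarboxylate carrier family member known for ketone body export in zebrafish liver, fell at both times on its representing probe set. At 2 weeks this measured 148 to 189 (median 167) on the salt-fat diet, against 187 to 257 (median 238) on the normal diet, overlapping, with -0.40 ± 0.11, adjusted p = 0.0257, and the call ended without 2-week salt-fat array 3 or 5 or 2-week normal-diet array 1, 2, 3 or 4 (-0.39 to -0.36). At 8 weeks it measured 98.9 to 167 (median 137) on the salt-fat diet, against 167 to 268 (median 222) on the normal diet, overlapping, with -0.70 ± 0.11, adjusted p = 0.000165. The second probe set was not called, at -0.15 ± 0.12, adjusted p = 0.489 after 2 weeks and -0.35 ± 0.12, adjusted p = 0.0548 after 8 weeks. Slc16a7 (MCT2), a high-affinity pyruvate and lactate carrier, was the 1 carrier that rose. It stood at 275 to 455 (median 335) on the salt-fat diet, against 221 to 305 (median 269) on the normal diet at 2 weeks, with overlap and a difference of 0.35 ± 0.11, adjusted p = 0.0378. The call was lost without 2-week salt-fat array 1, 5 or 6 or 2-week normal-diet array 1, 3, 5 or 6 (0.27 to 0.35), and also with no filter on low signals, without the intensity trend and with only the 2 groups compared in the fit. At 8 weeks Slc16a7 was 237 to 315 (median 267) on the salt-fat diet, against 238 to 357 (median 281) on the normal diet, overlapping, with -0.08 ± 0.11, adjusted p = 0.699. The vitamin C carrier Slc23a1 was called at neither time (0.05 ± 0.10 at 2 weeks and -0.04 ± 0.10 at 8 weeks).

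**Figure D2:**
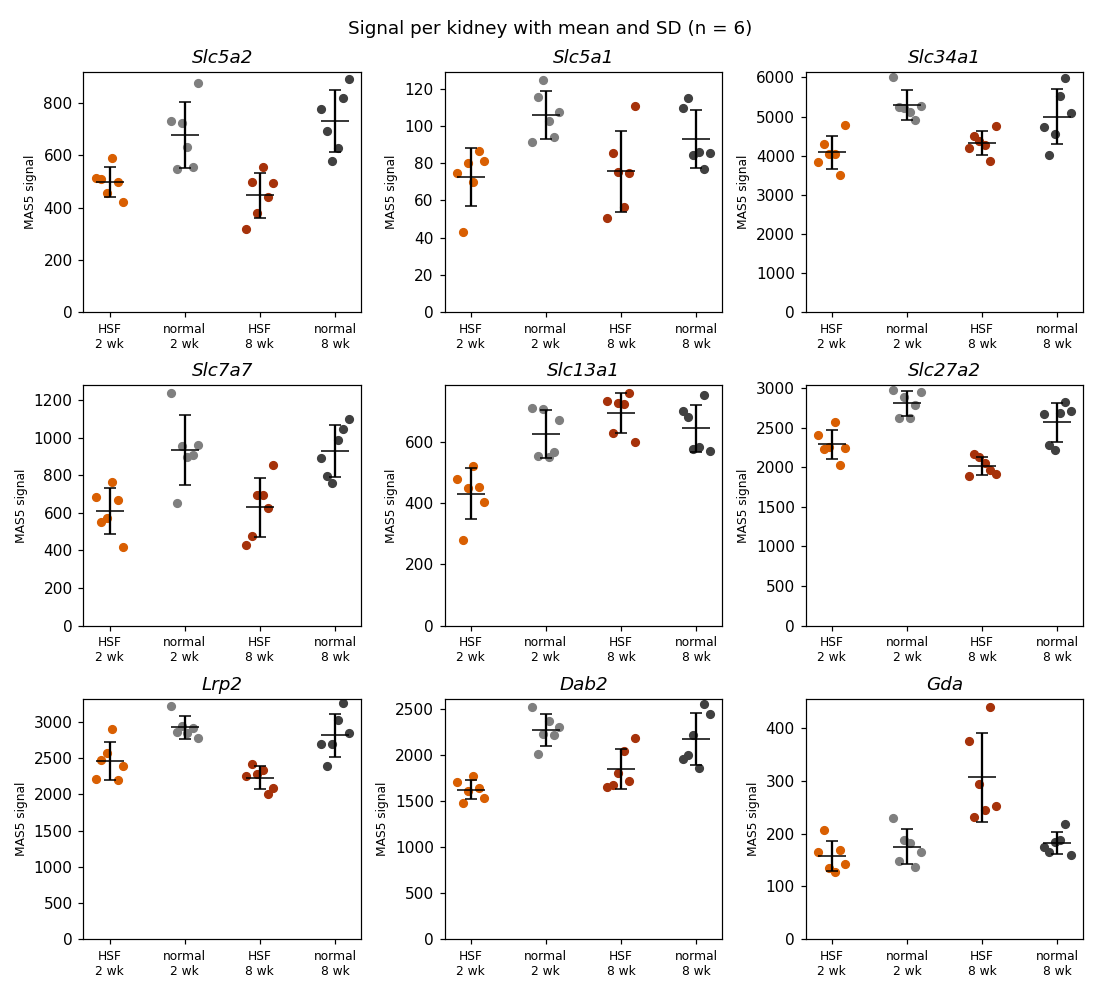
MAS5 signal (vertical axes, arbitrary units) of selected genes in every kidney, with the mean and SD of each group of 6, for the salt-fat diet (HSF on the axis) beside the normal diet at 2 and at 8 weeks. Slc5a2 at 8 weeks and Slc27a2 at both times have all treated kidneys below the normal ones, and Gda at 8 weeks has them all above.

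Of the 5 endocytic receptors and partners, 2 fell at each time. Lrp2 (megalin), the large scavenger receptor for filtered proteins, fell at both times. At 2 weeks it measured 2203 to 2907 (median 2429) on the salt-fat diet, against 2778 to 3228 (median 2889.8) on the normal diet, overlapping, with -0.26 ± 0.07, adjusted p = 0.0259, a call that ended on omission of 2-week salt-fat array 1 or 5 or 2-week normal-diet array 1 (-0.23) and on centring arrays on their medians. At 8 weeks the signals were 2001 to 2424 (median 2271) on the salt-fat diet, against 2393 to 3258 (median 2773) on the normal diet, with overlap and -0.33 ± 0.07, adjusted p = 0.00387. Dab2, the adaptor that links megalin to the clathrin coat, had the smallest adjusted p of the 39 genes at 2 weeks. Its signal was 1485 to 1769 (median 1625) on the salt-fat diet, against 2009 to 2525 (median 2271) on the normal diet, with separate ranges and -0.49 ± 0.08, adjusted p = 0.000337, a call kept under quantile normalization and with each of the 3 covariates. At 8 weeks Dab2 stood at 1658 to 2187 (median 1760.3) on the salt-fat diet, against 1865 to 2559.5 (median 2112) on the normal diet, overlapping, with -0.23 ± 0.08, adjusted p = 0.0681, and it became called without 8-week salt-fat array 4 or 6 or 8-week normal-diet array 4 (-0.28 to -0.26). Cubn (cubilin), the receptor for intrinsic factor-bound vitamin B12 and albumin, was called at neither time. It differed by -0.21 ± 0.07, adjusted p = 0.0664 at 2 weeks and by -0.18 ± 0.07, adjusted p = 0.12 at 8 weeks, and omission of 2-week salt-fat array 4 (-0.25) brought the 2-week difference into the calls.

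Amn (amnionless), which anchors cubilin in the membrane, fell at 8 weeks on its representing probe set. It measured 792 to 1122 (median 992) on the salt-fat diet, against 1042 to 1224 (median 1178) on the normal diet, overlapping, with -0.25 ± 0.08, adjusted p = 0.0343, and the call ended without 8-week salt-fat array 1, 3 or 5 or 8-week normal-diet array 3, 4, 5 or 6 (-0.25 to -0.19). At 2 weeks the signals were 1022 to 1289 (median 1164) on the salt-fat diet, against 1107 to 1252 (median 1162) on the normal diet, with 0.00 ± 0.08, adjusted p = 0.989, and the second probe set differed by -0.24 ± 0.08, adjusted p = 0.0683 at 2 weeks and -0.19 ± 0.08, adjusted p = 0.157 at 8 weeks. The folate receptor Folr1 was called at neither time (-0.15 ± 0.07 at 2 weeks and -0.08 ± 0.07 at 8 weeks). Pdzk1, a scaffold that holds Slc34a1 and other carriers in the brush border, fell at 8 weeks. Its 8-week signal was 1365 to 1958 (median 1724) on the salt-fat diet, against 1834 to 2297 (median 1959) on the normal diet, overlapping, with -0.26 ± 0.08, adjusted p = 0.0431. Leaving out 2-week normal-diet array 2 or 3 or 8-week salt-fat array 1, 3 or 5 or 8-week normal-diet array 1, 3, 4 or 5 (-0.27 to -0.21) ended that call. At 2 weeks it was 1612 to 2044 (median 1854) on the salt-fat diet, against 1874 to 2106 (median 2041) on the normal diet, overlapping, with -0.13 ± 0.08, adjusted p = 0.366.

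The 250 bases before and 50 bases after the start sites of these genes were searched for letters that the proximal tubule regulators HNF4 and HNF1 are known to bind. Sequences were taken from RefSeq on the assembly GRCr8, in which 36 of the 41 genes were matched by gene identifier. The letters CAAAGTNCA (HNF4) were found on either strand in 4 of 36 genes (11.1%), against 1.24% of the 33469 promoters of the table. The letters GTTAATNAT (HNF1) were found in 2 of 36 (5.56%), Mep1b and Slc16a7, against 0.747%. A match is a description of the letters only. The 4 promoters with the HNF4 letters are shown because 3 of them belong to the megalin and cubilin receptors and the scaffold Pdzk1 and the other to the cystine carrier subunit. Each is shown for the 250 bases before the start site only, reads in the direction of the gene, and has the match in capitals.
Lrp2, chr3:74754536-74754785, minus strand, match 168 bases before the start: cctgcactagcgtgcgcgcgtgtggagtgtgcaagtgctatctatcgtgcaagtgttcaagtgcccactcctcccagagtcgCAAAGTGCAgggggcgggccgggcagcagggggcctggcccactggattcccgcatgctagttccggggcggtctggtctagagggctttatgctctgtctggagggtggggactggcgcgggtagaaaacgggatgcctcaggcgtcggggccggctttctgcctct
Cubn, chr17:81501695-81501944, minus strand, match 38 bases before the start: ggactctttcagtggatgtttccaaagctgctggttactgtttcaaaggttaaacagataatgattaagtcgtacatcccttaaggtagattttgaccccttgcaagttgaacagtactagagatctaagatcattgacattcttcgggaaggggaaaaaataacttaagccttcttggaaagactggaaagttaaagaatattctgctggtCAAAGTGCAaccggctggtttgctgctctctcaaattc
Pdzk1, chr2:187064745-187064994, plus strand, match 9 bases before the start: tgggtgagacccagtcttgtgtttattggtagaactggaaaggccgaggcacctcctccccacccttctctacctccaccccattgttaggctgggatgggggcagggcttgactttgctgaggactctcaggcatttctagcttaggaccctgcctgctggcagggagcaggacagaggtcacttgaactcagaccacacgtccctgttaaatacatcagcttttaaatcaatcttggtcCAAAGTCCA
Slc3a1, chr6:15394750-15394999, minus strand, match on the opposite strand, 89 bases before the start: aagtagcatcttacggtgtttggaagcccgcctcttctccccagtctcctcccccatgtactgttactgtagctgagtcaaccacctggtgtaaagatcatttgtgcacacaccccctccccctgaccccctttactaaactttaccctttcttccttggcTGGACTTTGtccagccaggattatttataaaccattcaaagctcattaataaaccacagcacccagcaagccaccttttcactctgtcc
Of these 4 genes, Lrp2 fell at both times, Pdzk1 fell at 8 weeks, and Cubn and Slc3a1 were called at neither.

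Of the 8 brush border hydrolases tested 0 were called at 2 weeks, where 8.74% of all probe sets were called. At 8 weeks 2 fell, where 3.51% of all probe sets were called lower. Dpep1, the renal dipeptidase, measured 203 to 262 (median 219.6) on the salt-fat diet, against 266 to 357 (median 289.6) on the normal diet at 8 weeks. The treated kidneys all lay below the normal ones, with -0.41 ± 0.12, adjusted p = 0.025, and the second probe set differed by -0.31 ± 0.14, adjusted p = 0.193. Leaving out 8-week salt-fat array 1 or 3 or 8-week normal-diet array 1 or 4 (-0.39 to -0.36) ended the call. At 2 weeks Dpep1 stood at 176 to 315 (median 249.5) on the salt-fat diet, against 210.1 to 323 (median 298) on the normal diet, overlapping, with -0.22 ± 0.12, adjusted p = 0.242. Enpep (aminopeptidase A), which trims angiotensin II, was at 792 to 990.1 (median 906) on the salt-fat diet, against 989 to 1249 (median 1039) on the normal diet at 8 weeks, overlapping, with -0.26 ± 0.08, adjusted p = 0.031. That call ended without 8-week salt-fat array 1, 3 or 5 or 8-week normal-diet array 1 or 5 (-0.25 to -0.22), and its second probe set differed by -0.10 ± 0.16. At 2 weeks the Enpep signals were 811 to 1087 (median 963) on the salt-fat diet, against 975 to 1173 (median 1027) on the normal diet, with -0.13 ± 0.08, adjusted p = 0.339. The metalloprotease subunit Mep1b (meprin beta) pointed upward at 2 weeks without being called. It measured 566 to 655 (median 584) on the salt-fat diet, against 411 to 520.0 (median 481) on the normal diet, and although the ranges did not overlap the difference was 0.33 ± 0.11, adjusted p = 0.0636, called on omission of 8-week salt-fat array 3, 5 or 6 (0.33). At 8 weeks Mep1b differed by 0.07 ± 0.11, adjusted p = 0.767. The other 5 hydrolases were called at neither time. Their 2-week differences were -0.12 ± 0.08 for the glutathione-cleaving Ggt1, -0.08 ± 0.08 for aminopeptidase N (Anpep), -0.16 ± 0.07 for Dpp4, 0.07 ± 0.14 for neprilysin (Mme) and 0.12 ± 0.10 for meprin alpha (Mep1a). At 8 weeks the differences were 0.09 ± 0.08 for Ggt1, -0.11 ± 0.08 for Anpep, -0.13 ± 0.07 for Dpp4, 0.20 ± 0.14 for Mme and -0.03 ± 0.10 for Mep1a.

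Of the 3 enzymes, 2 fell at 2 weeks and 1 rose at 8 weeks. Miox, which opens the ring of myo-inositol and is nearly restricted to the proximal tubule, fell at 2 weeks. It measured 3813 to 4901 (median 4056) on the salt-fat diet, against 5028 to 5566 (median 5193) on the normal diet, with separate ranges and -0.33 ± 0.07, adjusted p = 0.00328. After 8 weeks the signals were 3814 to 4642 (median 4318) on the salt-fat diet, against 4259.5 to 5675 (median 4964) on the normal diet, overlapping, with -0.19 ± 0.07, adjusted p = 0.0831, called on omission of 8-week normal-diet array 2 (-0.23). Hao2, a peroxisomal oxidase of hydroxy acids, fell at 2 weeks, at 4444 to 6211 (median 5030.4) on the salt-fat diet, against 5882 to 7070.0 (median 6654) on the normal diet, with overlap and -0.33 ± 0.08, adjusted p = 0.0134. At 8 weeks Hao2 was 5138 to 6231 (median 5827) on the salt-fat diet, against 4988 to 7348 (median 5887) on the normal diet, overlapping, with -0.06 ± 0.08, adjusted p = 0.728. Gda (guanine deaminase), which turns guanine into xanthine, was the 1 gene that rose at 8 weeks. Its 8-week signals were 232 to 440.4 (median 274) on the salt-fat diet, against 160.4 to 219 (median 179) on the normal diet, with no overlap and 0.70 ± 0.14, adjusted p = 0.00195. At 2 weeks they were 128 to 206 (median 154) on the salt-fat diet, against 137 to 229.7 (median 174) on the normal diet, overlapping, with -0.14 ± 0.14, adjusted p = 0.597. The second probe set of Gda pointed the same way at 8 weeks without being called (0.57 ± 0.20, adjusted p = 0.0683).

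Across the 39 genes, 8 fell at both times: Slc5a2, Slc7a7, Slc15a1, Slc16a6, Slc6a13, Slc27a2, Slc13a3 and Lrp2. Another 8 fell at 2 weeks and were not called at 8 weeks, namely Slc5a1, Slc7a8, Slc7a9, Slc34a1, Slc13a1, Dab2, Hao2 and Miox. A further 6 fell at 8 weeks and were not called at 2 weeks, namely Slc13a2, Slc1a1, Amn, Pdzk1, Dpep1 and Enpep. At neither time were 15 genes called. Groups did not overlap, with the treated kidneys lower, for 9 genes at 2 weeks, where 2.17% of all probe sets did so, and for 4 genes at 8 weeks, against 1.14%. Falling at one time and not being called at the other does not show that the diet acted differently, so the difference between the diet effects was tested. The interaction in limma called 0 of the 39 genes, against 0.382% of all probe sets. An unadjusted p under 0.05 was found for 8 of the 39, and for 1189 of all 10208 probe sets. Nearest to a call were Gda, with an 8-week effect higher than the 2-week effect by 0.84 ± 0.20, adjusted p = 0.0527, and Slc13a1, with 0.66 ± 0.16, adjusted p = 0.0529. Gda became called without 2-week salt-fat array 2 or 2-week normal-diet array 5 or 8-week salt-fat array 2, 4 or 6 or 8-week normal-diet array 5 (0.89 to 0.92), and Slc13a1 without 2-week salt-fat array 2 or 4 or 8-week salt-fat array 2 or 6 or 8-week normal-diet array 5 (0.54 to 0.72). Both were called with the filter required in all 24 arrays and with array weights. Their second probe sets were not called in the interaction. In limma these gave 0.73 ± 0.28, adjusted p = 0.3 for Gda and 0.52 ± 0.20, adjusted p = 0.285 for Slc13a1. With the mean of a gene's probe sets the interaction called 0 of the 39 genes.

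The change with time was tested on each diet. On the salt-fat diet 7 of the 39 genes were called between 8 and 2 weeks, 2 of them higher and 5 lower at 8 weeks. Over all probe sets 3.53% were called in that comparison, 2.22% higher and 1.3% lower. The purine enzyme Gda rose by 0.91 ± 0.14, adjusted p = 0.000355, with treated signals of 232 to 440.4 (median 274) at 8 weeks, against 128 to 206 (median 154) at 2 weeks, and the ranges were apart. Slc13a1 also rose, by 0.70 ± 0.11, adjusted p = 0.000431, with treated signals of 601 to 762 (median 726) at 8 weeks, against 282 to 524 (median 452) at 2 weeks, again with no overlap. On the normal diet the same difference was 0.07 ± 0.14 for Gda and 0.04 ± 0.11 for Slc13a1. The luminal dicarboxylate carrier Slc13a2 fell by that measure, with -0.38 ± 0.09, adjusted p = 0.0137 on the salt-fat diet. The 4 others that fell were Mep1b (-0.44 ± 0.11, adjusted p = 0.0205), Slc15a2 (-0.39 ± 0.10, adjusted p = 0.0258), Slc23a1 (-0.37 ± 0.10, adjusted p = 0.0324) and Anpep (-0.27 ± 0.08, adjusted p = 0.0393). These 4 calls rested on single arrays, and the count of 7 became 3 without 2-week array 3 or without 8-week array 3 or 5 of the salt-fat diet, and 11 without its 8-week array 2. Mep1b was lost without 2-week salt-fat array 3 or 8-week salt-fat array 3 or 5 (-0.41 to -0.36). Slc15a2 was lost without 2-week salt-fat array 3 or 8-week salt-fat array 3, 4 or 5 (-0.38 to -0.34), Slc23a1 without 2-week salt-fat array 2, 3 or 5 or 8-week salt-fat array 1, 3, 4 or 5 (-0.37 to -0.32), and Anpep without 2-week salt-fat array 2, 3 or 4 or 8-week salt-fat array 1, 3, 4 or 5 (-0.28 to -0.24). On the normal diet limma called 0 of the 39 genes, where 0.0392% of all probe sets were called. There 4 of the 39 had an unadjusted p under 0.05, as did 869 of all 10208 probe sets. The normal-diet differences of these 5 genes pointed the same way: -0.11 ± 0.09 for Slc13a2, -0.18 ± 0.11 for Mep1b, -0.34 ± 0.10 for Slc15a2, -0.27 ± 0.10 for Slc23a1 and -0.24 ± 0.08 for Anpep. The time comparisons share their arrays with the diet comparisons.

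**Figure D3:**
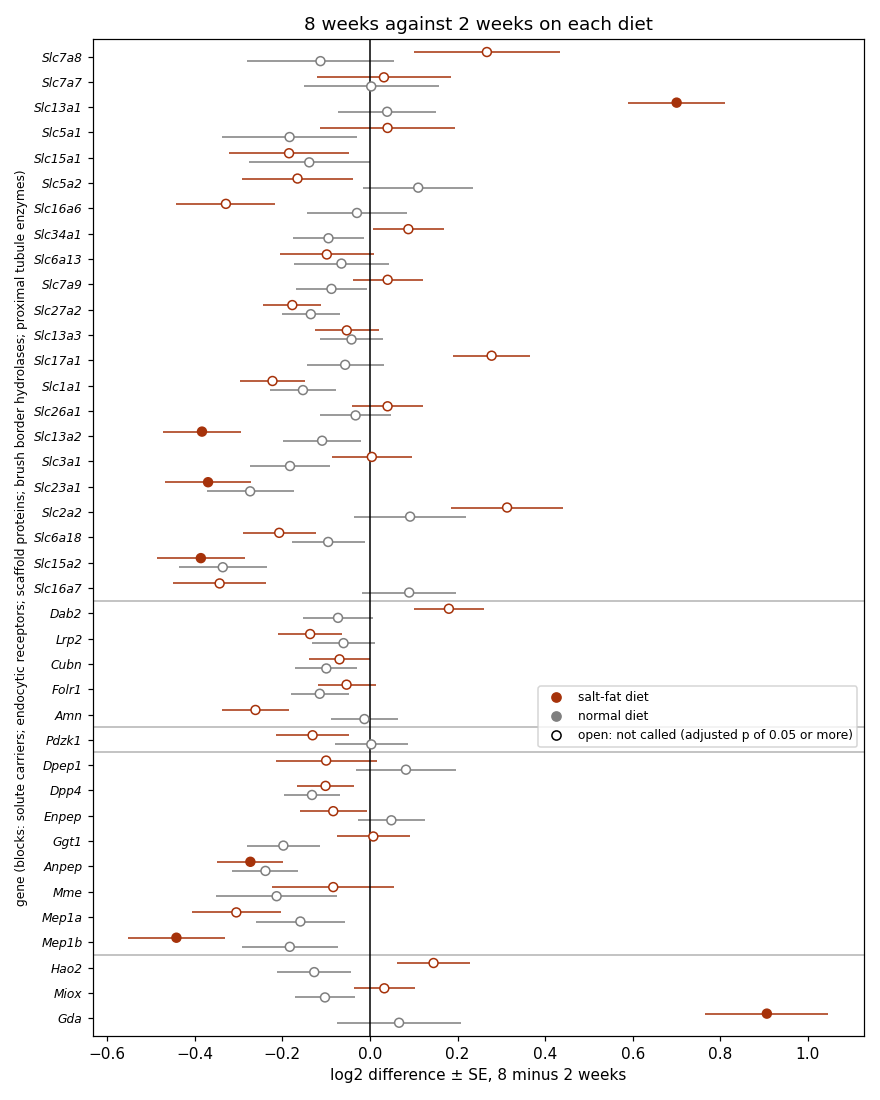
Difference between 8 and 2 weeks for the 39 genes, on the log2(signal + 7.21) scale (horizontal axis), as points with SE bars on the salt-fat diet (red) and the normal diet (grey). Filled points are called genes; Gda and Slc13a1 on the salt-fat diet lie farthest to the right, and no normal-diet point is filled.

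The shift was also read in single kidneys. Set against the normal-diet median of its time, each kidney was scored for how many of the 39 genes lay below. At 2 weeks this was 26 to 32 genes in the 6 treated kidneys, against 11 to 28 in the normal ones, so the ranges overlapped between 26 and 28. At 8 weeks it was 24 to 35 genes in the treated kidneys, against 5 to 35 in the normal ones, which overlapped widely, with array 2 of the normal diet at 35 and array 1 at 28. These 2 are the arrays that stood apart in their lowest signals. Without both of them 13 of the 39 genes were called at 8 weeks, and 541 of all 10208 probe sets, against 933 with them. Dpep1, Enpep and Pdzk1 were then no longer called, and Slc34a1 was.

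**Figure D4:**
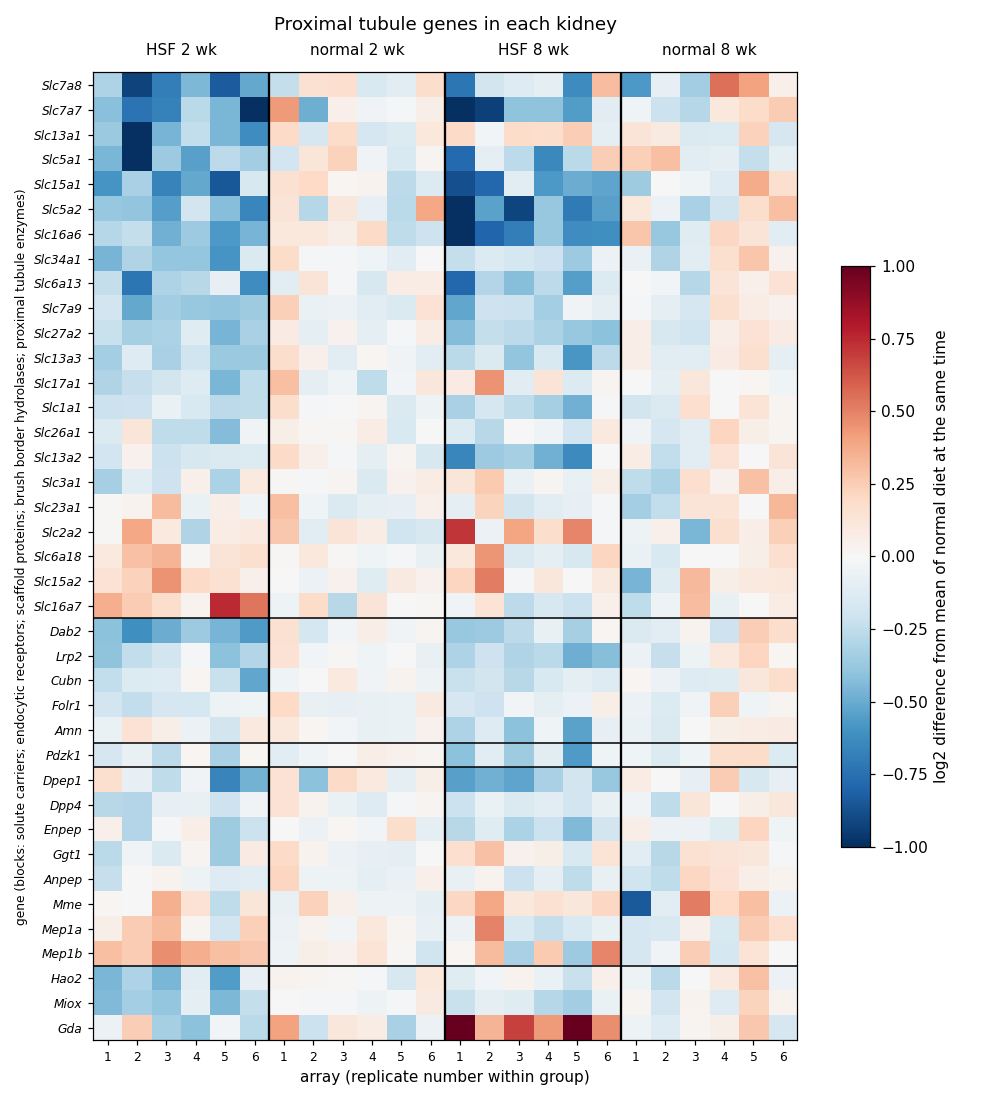
Log2(signal + 7.21) of the 39 genes in each of the 24 kidneys, minus the mean of the normal-diet kidneys of the same time; rows are genes by class, columns are kidneys by group (HSF is the salt-fat diet), and colours run from blue (lower) to red (higher) and end at 1 log2 unit each way. Blue prevails in the salt-fat columns among the solute carriers, while Gda is red in the treated 8-week kidneys.

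Other genes of the proximal tubule, 37 tested of 59 listed for comparison, also mostly fell where they were called. At 2 weeks 16 fell and 1 rose (median difference -0.23), and at 8 weeks 11 fell and 0 rose (-0.22). Slc4a4, the basolateral sodium bicarbonate carrier, fell at both times, with -0.47 ± 0.07, adjusted p = 8.17e-05 at 2 weeks and -0.47 ± 0.07, adjusted p = 5.68e-05 at 8 weeks. Hnf4a, the transcription factor whose binding letters were searched above, fell at 2 weeks (-0.74 ± 0.13, adjusted p = 0.000558) and was not called at 8 weeks (-0.22 ± 0.13, adjusted p = 0.311). Cyp4a1, a fatty acid hydroxylase, and Ass1, an enzyme of arginine synthesis, fell at 2 weeks, with -0.53 ± 0.08 for Cyp4a1 and -0.44 ± 0.08 for Ass1. At 8 weeks the sodium-hydrogen exchanger Slc9a3 (-0.50 ± 0.08), the oxidase Fmo1 (-0.36 ± 0.07) and the organic anion carrier Slc22a6 (-0.41 ± 0.08) fell as well. At 2 weeks Slc9a3 was not called, at 367 to 446 (median 414) on the salt-fat diet, against 285 to 431 (median 364) on the normal diet. The interaction called 1 of the 37 genes, with the 8-week effect lower, against 0.382% of all probe sets. The 1 that rose at 2 weeks was the organic cation carrier Slc22a2 (0.34 ± 0.10, adjusted p = 0.0302).

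Markers of other cells were called to differing extents. In the thick ascending limb 4 of 8 markers rose at 2 weeks and 2 of 8 at 8 weeks, and their summed signal per kidney at 2 weeks was 8848 to 11123 on the salt-fat diet, against 8197 to 9653 on the normal diet. The brightest of these markers, Umod, had a 2-week mean of 5703 on the salt-fat diet, against 5773 on the normal diet. Of 5 markers of the distal convoluted and connecting tubule 1 fell at 2 weeks and 3 fell at 8 weeks (median difference -0.35), and none rose, with Pvalb below the filter. Their summed signal at 8 weeks was 2031 to 3231 on the salt-fat diet, against 2918 to 3656 on the normal diet. Of 10 collecting duct markers 6 rose and 1 fell at 2 weeks, and 4 rose at 8 weeks. Their summed signal was 3897 to 4548 on the salt-fat diet, against 2629.9 to 3116 on the normal diet at 2 weeks, and 3645 to 4476, against 2893 to 3442, at 8 weeks. Of 13 markers of injured tubule 6 rose at 2 weeks and 11 at 8 weeks. Their summed signal at 8 weeks was 7947 to 16665 on the salt-fat diet, against 3719.5 to 4937 on the normal diet. The brightest, Spp1, had an 8-week mean of 5334 on the salt-fat diet, against 1142 on the normal diet. Among fibroblast and pericyte markers 1 of 8 rose at 2 weeks and 5 of 8 at 8 weeks, and among macrophage and leukocyte markers 0 and 3 of 7, with Cd3d, Cd8a and Ptprc below the filter. Of 5 fat cell markers tested 3 fell at 2 weeks (median difference -1.87) and 2 rose at 8 weeks (0.66), and the interaction called 2 of the 5, with Lep and Plin1 below the filter. Their summed signal was 195.2 to 431.7 on the salt-fat diet, against 368.5 to 3986 on the normal diet at 2 weeks, and 504.4 to 984.9 on the salt-fat diet, against 151.5 to 3499.7 on the normal diet at 8 weeks. Of 6 podocyte markers 1 rose at 2 weeks, and 1 rose and 1 fell at 8 weeks (median differences -0.07 and -0.19). Of 7 endothelial markers 1 rose at 2 weeks and 1 fell at 8 weeks (0.00 and 0.04). Of 3 liver markers tested 1 fell at 2 weeks and 1 rose at 8 weeks. Of 3 blood markers 1 rose at 2 weeks and 0 were called at 8 weeks. The 1 that rose was Slc4a1, which is also counted among the 10 collecting duct markers. Hbb and Alas2 were called at neither time. The part of all these cells in the proximal tubule values was not tested. Of the intestinal markers Apoa4, Fabp2 and Si lay below the filter, and 2, Muc2 and Cdx2, were tested. Of these 0 were called at either time (median differences -0.05 at 2 weeks and -0.55 at 8 weeks). At 8 weeks both had an unadjusted limma p under 0.05, as did 2416 of all 10208 probe sets.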

How the data were processed

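The authors deposited 1 table of intensity values, which are MAS5 signals per the submitters' processing notes, for 15923 probe sets on 24 rat kidney arrays. The MAS5 version and scaling target are not given in the sources used here. Trimmed of the 2% at each end, array means ran from 150.034 to 150.042, so the arrays share a scale. Symbols came from the platform annotation, of which 12783 probe sets had 1, 312 several and 2771 none, beside 57 controls that were left out.

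From these signals log2(signal + 7.21) was computed, with a pseudocount of 0.1 of the middle array median, without further normalization. Group means were fitted with limma 3.58.1 (eBayes with trend) in R 4.3.3 to all 24 arrays, giving the diet effect at 2 and 8 weeks, their difference and the time effect on each diet, with two-sided tests. The fit was tested on simulated data. The members and gene lists were chosen with earlier results of these data known. All 39 tested genes are named. Full values are given for those called by diet and for Slc2a2 and Slc15a2, and Mep1b was added after its values were seen. Of the other proximal tubule genes those of smallest p are named. Markers of other cells are given mainly by counts, medians and summed signals. Groups came from the sample labels, in which replicate numbers are not said to pair animals. Other settings were other pseudocounts, quantile or median scaling, other filters and variance models, weighted arrays, a block for the replicate number, fewer groups, each array left out, technical covariates and the mean of a gene's probe sets. Their use on the time effect of single genes was added after seeing the data.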

Additional observations from a re-analysis of the deposited data

Results flagged for a closer look

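A kidney was set aside for a closer look where its signal lay so far from the nearest of its group that the gap, over the range of the group, passed Dixon's critical value for 6 samples. Of 156 groups of 6 (39 genes in 4 groups) 8 passed, or 5.13%, where chance gives about 1 in 20. In 4 of the 8 the kidney was array 2 of the salt-fat diet. Mep1a (meprin alpha) reached 1888.7 in the 8-week array 2, while the other 5 lay between 1134.8 and 1283.7. Mme (neprilysin) was also high there, at 802.5 beside 661.5 to 711.1. At 2 weeks the array with that number, from another animal, was high for the dicarboxylate carrier Slc13a2, at 960.1 beside 798.9 to 844.2, and low for the glucose carrier Slc5a1, at 42.8 beside 69.9 to 86.8. Slc23a1 reached 569.1 in array 3 of the 2-week salt-fat diet, beside 434.6 to 477.3. On the 2-week normal diet Miox reached 5566.1 in array 6 (others 5027.8 to 5197.6), Slc34a1 reached 6017.6 in array 1 (others 4909.4 to 5273.6), and Slc26a1 was low at 935.7 in array 5 (others 1041.7 to 1097.1).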

How the results depend on the processing

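No difference called for diet, the interaction or time on the salt-fat diet changed sign under the settings tried. The count of the 39 genes called for diet at 2 weeks (17) became 10 with quantile normalization, 7 with the GAPDH ratio, 2 with the fat index and 4 with the spike-ins as covariate. Over all 10208 probe sets the count (892) became 796, 328, 232 and 482 under these settings, in that order. The covariates differ between the diets at 2 weeks, so such a fit also removes what they share with diet, and the cause of the loss was not tested. Among other proximal tubule genes the 2-week count (17) became 8 with the fat index. For diet at 8 weeks (15 genes), leaving out 1 array at a time gave 8 to 17 genes. The interaction count (0) became 1 with a pseudocount of 0.5 times the median, 1 with quantile normalization, 2 with the filter in all 24 arrays, 2 with array weights and 1 with the replicate number as a block, and 0 to 2 on leaving out single arrays. Over all probe sets the interaction count (39) became 47, 39, 37, 80 and 41 from the pseudocount to the block, in that order. The filter in all 24 arrays left 7657 probe sets tested. The time effect on the salt-fat diet (7 genes) gave 3 with the GAPDH ratio, 4 with the fat index, and 3 to 11 on leaving out single arrays. Over all probe sets that count (360) became 250 with the GAPDH ratio and 283 with the fat index. The labels do not say whether replicate numbers pair animals. Over 36 pairs of arrays with the same number in different groups, the correlation of deviations from the group means ran from -0.147 to 0.162 (median 0.015). Over 180 pairs with different numbers it ran from -0.281 to 0.245 (median -0.00838). Such correlations cannot show whether a pairing was used. With the replicate number as a block 17 genes were called for diet at 2 weeks and 14 at 8 weeks, where Enpep was lost, and 6 for time on the salt-fat diet. What background adds to weak signals was not measured.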

Other observations

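A pair of listed genes stands on the array under newer names and was not counted with the others. Slc6a20a, an imino acid carrier of the brush border, fell at 8 weeks on both of its probe sets, by -0.35 ± 0.11 (limma adjusted p = 0.0428) and -0.29 ± 0.09 (adjusted p = 0.0402), and was not called at 2 weeks (-0.15 ± 0.11 and 0.12 ± 0.09). Nherf1, the PDZ scaffold known before as Slc9a3r1, was called at neither time on either probe set. Its differences were -0.38 ± 0.13 (adjusted p = 0.0677) and -0.14 ± 0.07 at 2 weeks, and -0.11 ± 0.13 and -0.13 ± 0.07 at 8 weeks.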
